A study of Mus musculus with 22 samples.

Results

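The chromatin of 9 genes that bring fatty acids into the adipocyte and hold them there was described by its accessibility. They are Lpl, Cd36, Fabp4, Fabp5, Slc27a1, Angptl4, Vldlr, Acsl1 and Cav1, 9 of the 21938 protein-coding genes of the GENCODE vM21 annotation. They were chosen by name and function, with earlier results of these data known. The locus of a gene is its span on the mouse genome build GRCm38 with 20 kb on each side. Every deposited ATAC-seq peak that overlaps a locus was used, in all 22 libraries.

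The adipocyte takes up fatty acids in steps. Lipoprotein lipase (Lpl) cuts them from circulating triglyceride at the capillary wall, Angptl4 inhibits that enzyme, and Vldlr, the very low density lipoprotein receptor, binds triglyceride-rich particles. Cd36 and Slc27a1 (also known as FATP1) promote the passage of fatty acids over the plasma membrane, Cav1 is the main protein of caveolae, the membrane pits that are abundant in fat cells, Fabp4 and Fabp5 carry fatty acids in the cytosol, and Acsl1 couples them to coenzyme A. Several of these genes are textbook targets of PPARγ, the nuclear receptor that drives fat cell differentiation.

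The libraries were made from epididymal adipose tissue (epiAT) of mice labelled AdipoERCre x NuTRAP on a C576BL6 background. The study's methods give the background of both lines as C57BL/N. In all 8 groups, controls included, the animals carried a Cre recombinase that tamoxifen activates and that the Adipoq promoter drives, all were given tamoxifen, and the NuTRAP reporter then put biotin on the nuclei of cells in which Cre had acted. The profiles therefore hold the nuclei of cells that expressed Adipoq when tamoxifen was given and whatever else was carried along in the pull-down. Each replicate is 1 animal. At 18 weeks of age, mice kept on chow (C, n = 3) were set against mice fed high-fat diet (HFD) during the preceding 12 weeks (H, n = 3). At 26 weeks, mice with 12 weeks of HFD followed by 8 weeks of chow (HC, n = 3) were set against mice without HFD (CC_s, n = 3). For the longer exposure, mice after 25 weeks of HFD (HH, n = 3) had chow-fed controls of the same 31 weeks (CC_l, n = 2). Mice returned to chow for 8 weeks after 25 weeks of HFD (HHC, n = 3) had controls of the same 39 weeks (CCC, n = 2). H and HH are the obese groups, HC and HHC the weight loss (WL) groups. In the final 8 weeks the WL groups and their controls CC_s and CCC ate another chow than before, by the study's methods, so that only groups of equal age were compared. Apart from the replicate number, the labels give each library a code whose prefix is one for all 12-week groups and another for all 25-week groups. What the prefix stands for is not given in the sources used here, and it cannot be told apart from duration.

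The peak lists held 40528 to 60523 peaks, which covered 128 to 299 Mb. The lists hold no read counts, and the depth of a library is unknown. The maximum signal of the median peak, divided by that of the weakest peak in the list, was 6.82 to 8.92 in C and 4.70 to 6.40 in H. HC 3 (2.43) and HHC 3 (2.25) stood apart from the other libraries. The loci of 12 adipocyte markers were above the detection floor in every library. Of the 12 macrophage marker loci 6 or 7 were above the floor in every library of a group. The number at the floor in all libraries of a group was 5 in C, 4 in H, 5 in CC_s and 1 in HC. It was 6 in CC_l, 1 in HH, 4 in CCC and 0 in HHC. Adgre1 was among them in C, CC_s, HC, CC_l, HH and CCC. Of the 12 endothelial marker loci 5 to 9 were above the floor in every library of a group, with a mean log2 signal of 8.85 in C and 9.27 in H.

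Values are locus signals, the coverage summed over the peaks that overlap a locus, per kb of locus, on a log2 scale after each library had been brought to a common distribution by rank. A peak that reaches past the edge of a locus was counted in full, so that signal outside the locus is included. A locus without a sufficient peak sits at a floor of 7.23. Differences were tested with limma over all loci that passed a filter on low values, which all 9 members passed in every comparison, and a locus was called at a Benjamini-Hochberg adjusted p under 0.05. Within a bulk library, more nuclei with an open locus and more open chromatin per nucleus cannot be told apart.

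The locus signal at 7 of the 9 loci was above percentile 90 of all loci in every library. Lpl ranked between percentile 96.0 and 99.5 of all loci over the 22 libraries, Cav1 between 96.2 and 99.5, Angptl4 between 96.6 and 99.6, Slc27a1 between 93.6 and 98.9, Fabp4 between 93.3 and 99.8, Acsl1 between 91.7 and 99.7 and Cd36 between 90.1 and 98.8. Fabp5 ranked lower, between 61.9 and 88.1. Vldlr lay near the middle of all loci, between percentile 36.0 and 64.0 but for HC 3, which has no peak there and was at percentile 8.21. Peaks covered a median of 82.1% of the Acsl1 locus and 77.9% of the Cd36 locus, but 49.0% of the Fabp4 locus, 26.4% of the Fabp5 locus and 13.0% of the Vldlr locus. In HC 3 and HHC 3 the covered share was lower at most loci, for example 57.7% and 34.6% at Acsl1, whereas Fabp4 kept 44.1% and 47.0%.

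**Figure D1:**
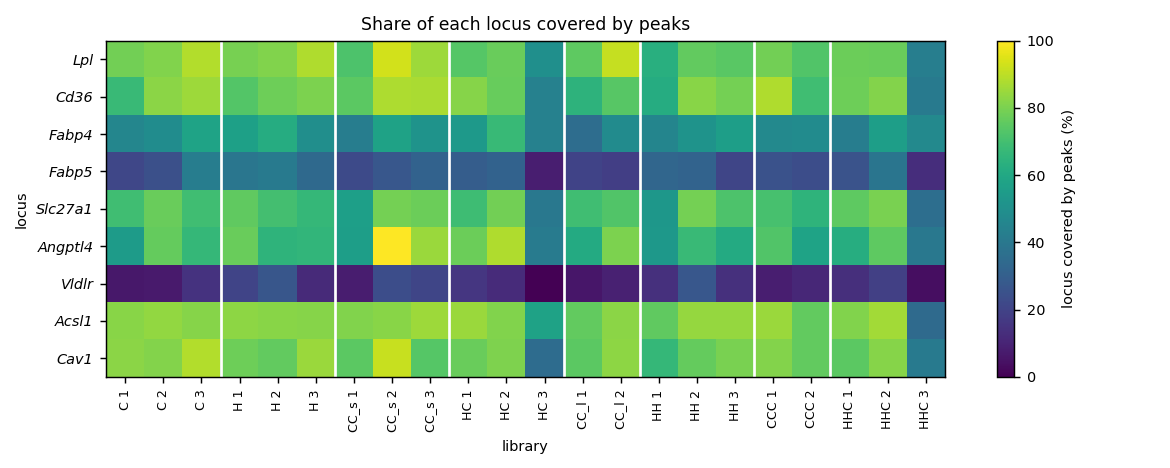
Share of each locus under peaks (colour, %) in the 22 libraries, in group order with white lines between groups. Vldlr and Fabp5 are sparsely covered throughout, and the columns of HC 3 and HHC 3 are darker than the others at most loci, with no peak at Vldlr in HC 3.

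In obesity, 5 of the 9 loci rose when both durations were fitted together with duration as a covariate. These were Vldlr, Fabp4, Cd36, Fabp5 and Acsl1, all higher in obese mice. Of all loci 16.4% were called in that fit. None of the 5 was called in maximum signal, where the Fabp5 and Acsl1 differences were below 0, and Fabp4 and Vldlr alone were called in covered length or in share of the library signal. The Fabp5 and Acsl1 calls were also lost without certain single libraries, as given with each gene. The median difference of the 9 members was 0.59 on the log2 scale, against -0.02 over all 17029 loci tested, and all 9 differences were above 0. After 12 weeks alone (H vs C), Fabp4 and Cd36 were called higher, where 10.6% of all loci were called. Both of these calls were lost in maximum signal, in covered length and in share of the library signal, and without certain single libraries. After 25 weeks alone (HH vs CC_l), no member was called and 0.00578% of all loci, a single locus, were called. At an unadjusted p under 0.05, 5 members passed in H vs C, where 31% of all loci did, and 4 in HH vs CC_l, where 11.4% did, all higher. Over both durations the 5 called members passed it, as 33.1% of all loci did.

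After WL no member was called. The shares of all loci called were 0% in HC vs CC_s, 0% in HHC vs CCC and 0.0882% with both durations fitted together, and 8.5%, 3.66% and 15.3% (1441, 640 and 2605 loci) passed an unadjusted p under 0.05 in these limma fits. The median difference of the members was 0.41 in HC vs CC_s, 0.04 in HHC vs CCC and 0.25 over both durations, against -0.03, -0.04 and -0.04 over all loci. Fabp4, Acsl1 and Angptl4 passed an unadjusted p under 0.05 in HC vs CC_s, and Fabp4 alone passed it in HHC vs CCC. Over both durations Fabp4, Acsl1 and Slc27a1 passed it. No member was called for a difference between the durations in its obesity effect or its WL effect, where 0% and 0% of all loci were called and 4.92% and 1.32% (837 and 224 loci) passed an unadjusted p under 0.05 in limma. At an unadjusted p under 0.05, Acsl1 passed for the obesity effect and Fabp4 for the WL effect.

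**Figure D2:**
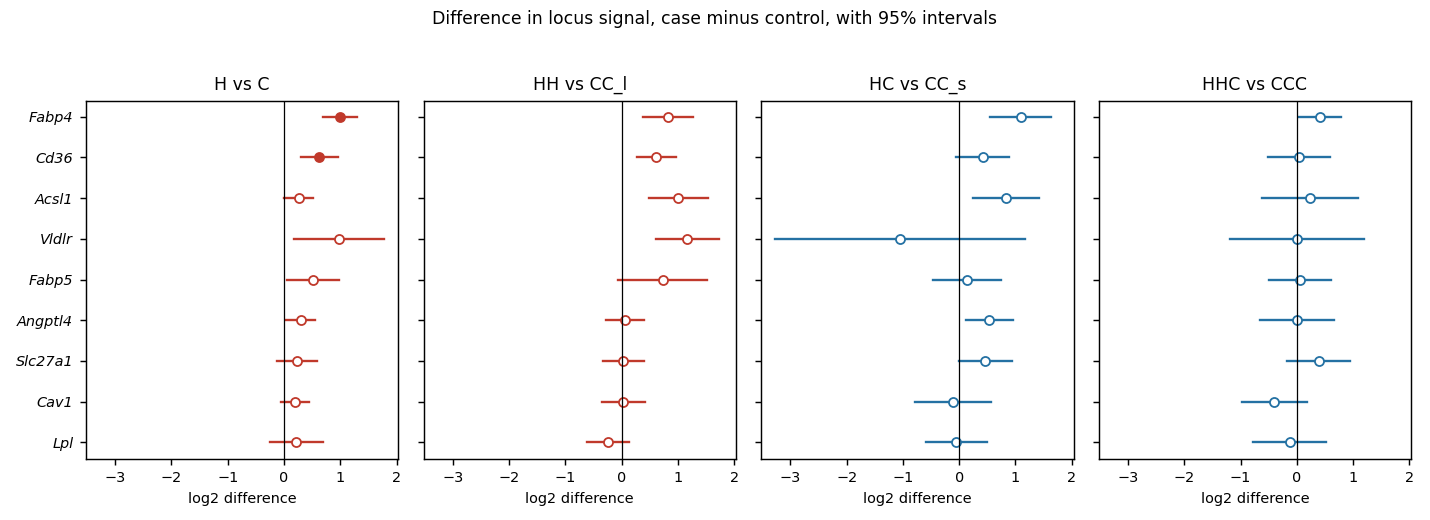
Difference in log2 locus signal, obese or WL group minus the control of the same age, for each member in the 4 pairs, with 95% intervals as bars. Filled points mark the 2 called differences, Fabp4 and Cd36 in H vs C, and the Fabp4 interval lies above 0 in all 4 panels.

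Groups that did not overlap give a view without a model. Every H library was above every C library at 4 of the 9 loci (Fabp4, Cd36, Fabp5 and Angptl4), which 19.6% of the 17729 loci above the floor in at least 5 libraries showed. Every HH library was above both CC_l libraries at 5 loci (Fabp4, Cd36, Fabp5, Acsl1 and Vldlr), where the share of all loci was 14.8%. Every HC library was above every CC_s library at 3 loci (Fabp4, Acsl1 and Angptl4), where it was 6.2%. Every HHC library was above both CCC libraries at Fabp4 only, where it was 10.8%, and Cav1 was lower in every HHC library, as were 13.5% of all loci. Fabp4 was thus higher without overlap in all 4 pairs, which share no library, as were 0.688% of all loci.

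**Figure D3:**
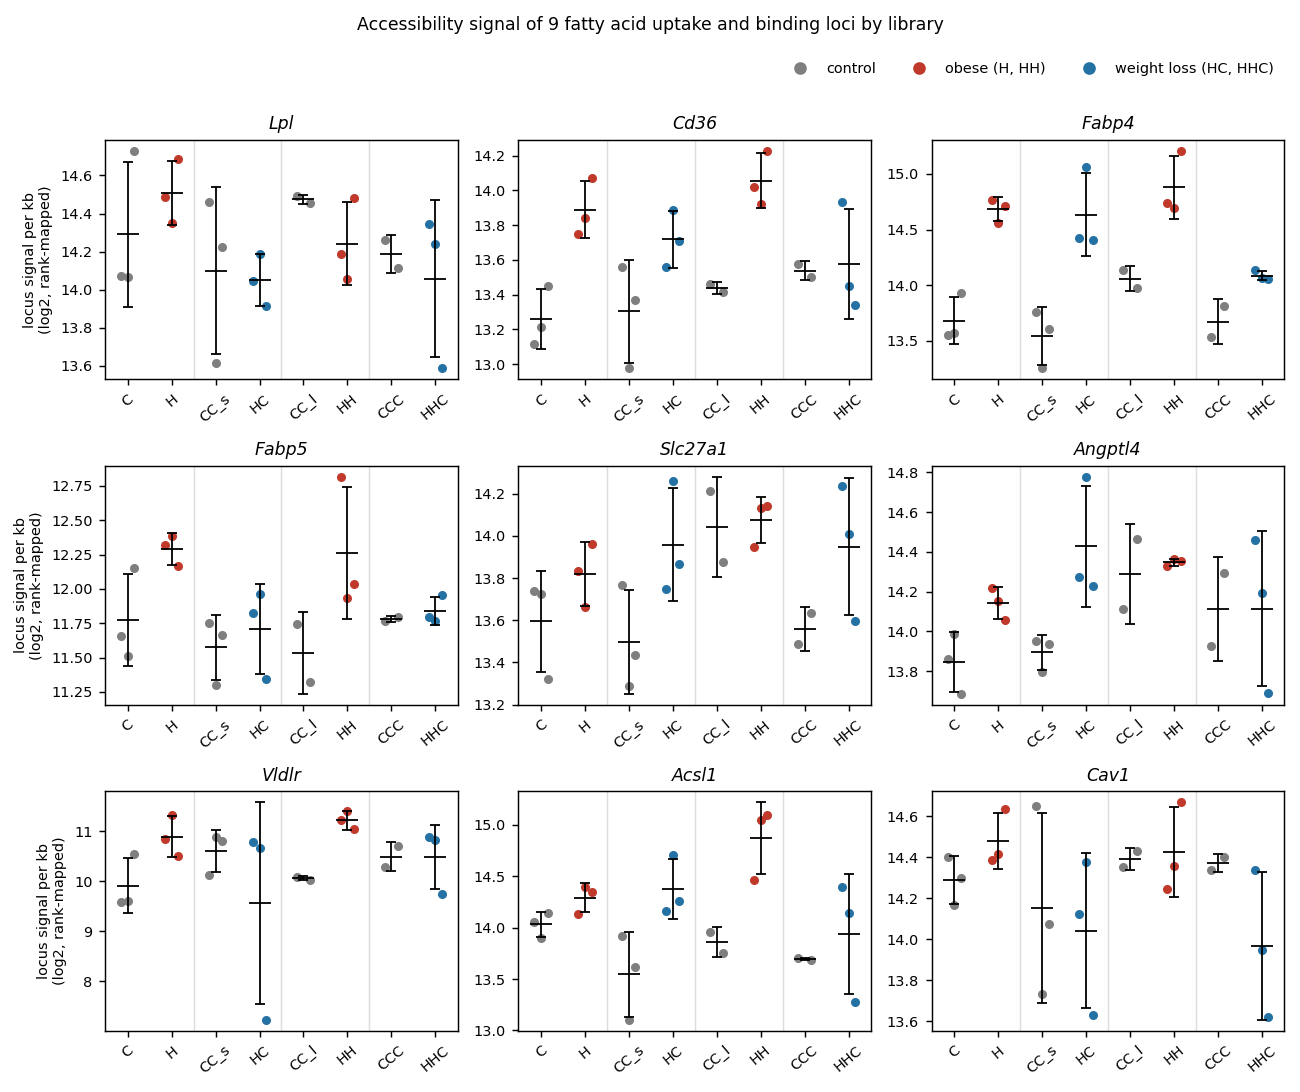
Locus signal per kb (log2 after rank-mapping) of the 9 loci, with 1 point per library, the group mean as a dash and the SD as an error bar (n = 3, or 2 for CC_l and CCC), and grey lines between the 4 pairs of equal age. At Fabp4 the points of H, HC, HH and HHC lie above those of their own controls, and the Vldlr point of HC 3 sits at the floor.

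Fabp4, also called aP2 or A-FABP, is the most abundant fatty acid binding protein of the fat cell. The gene lies on chromosome 3 (chr3:10204088-10208576, minus strand) and spans 4.49 kb. Its locus signal was 13.55, 13.57 and 13.93 in C and 14.77, 14.56 and 14.71 in H. It was 13.76, 13.25 and 13.61 in CC_s and 14.43, 15.07 and 14.41 in HC. The groups of both pairs were separate.

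In the 25-week groups the Fabp4 locus signal was 14.14 and 13.98 in CC_l and 14.74, 14.70 and 15.21 in HH. It was 13.53 and 13.82 in CCC and 14.14, 14.07 and 14.05 in HHC. Again every obese or WL library lay above its own controls.

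The H vs C difference at Fabp4 was 1.00 ± 0.13 (SE, log2, limma, adjusted p = 0.0141). In HC vs CC_s it was 1.09 ± 0.23, with an adjusted p of 0.348. In HH vs CC_l it was 0.82 ± 0.18 (adjusted p = 0.212) and in HHC vs CCC 0.41 ± 0.15 (adjusted p = 0.860). The HHC vs CCC difference was -0.05 in maximum signal, below 0. Over both durations the obese difference was 0.92 ± 0.11 (adjusted p = 0.000739) and the WL difference 0.79 ± 0.17 (adjusted p = 0.120). The H vs C call was lost without C 2, H 1 or H 2, at adjusted p values of 0.0646, 0.0623 and 0.0574 and differences of 0.94, 0.95 and 1.06. It was also lost in maximum signal (0.27, adjusted p = 0.210), in covered length (0.34, adjusted p = 0.162) and in share of the library signal (0.66, adjusted p = 0.101). The WL difference over both durations was 0.85 without HC 3 and HHC 3 (adjusted p = 0.107). In covered length the obese difference over both durations was 0.40 (adjusted p = 0.0330), and in maximum signal 0.30 (adjusted p = 0.111).

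The union region over Fabp4, all peaks that touch each other in any library merged (chr3:10188984-10224084), also holds Fabp9 and Gm37389. Among all regions, 8.28% were called in H vs C with an absolute log2 difference above 1 and an adjusted p under 0.05, and 8.52% passed an unadjusted p under 0.01 with the same difference. For the Fabp4 region the differences were 0.83 ± 0.17 in H vs C (adjusted p = 0.0188) and 1.04 ± 0.20 in HC vs CC_s (adjusted p = 0.141), which passed the unadjusted rule as 2.54% of all regions did, while 0% were called there. Over both durations the WL difference of this region was 0.78 ± 0.16 with an adjusted p of 0.0310, under the fold limit. The neighbouring region upstream (chr3:10227869-10333590), over Fabp12, Impa1 and Slc10a5, differed by -0.05 ± 0.10, 0.12 ± 0.18, -0.03 ± 0.13 and -0.16 ± 0.26 in H vs C, HC vs CC_s, HH vs CC_l and HHC vs CCC. All 4 intervals of that neighbouring region include 0.

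The highest point of coverage at the Fabp4 locus moved. It was within 1 kb of the gene start in all 10 control libraries, at -52 bases from the start in 8 of them, and in 2 of the 12 obese and WL libraries (HH 1 and HHC 2). In H 1, H 2 and H 3 it lay 5.37, 5.47 and 5.36 kb past the gene start, which is beyond the 3′ end of the gene. In HC 1 and HC 2 it lay at 5.50 kb, and in HH 2 and HH 3 at 5.86 and 5.65 kb. In HC 3, HHC 1 and HHC 3 it lay upstream of the start, at -5.40, -5.33 and -5.26 kb. HC 3 and HHC 3 stood apart in their median peak relative to the weakest one (2.43 and 2.25), and their Fabp4 maxima were only 55 and 46. Whether the position of so low a maximum is reliable was not tested.

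A highest point within 1 kb of the gene start in every C and in no H library was found at 0.528% of the loci with peaks in those 6 libraries, and the same for CC_s and HC at 0.257%. This distance was chosen after the positions had been seen. Fabp4 met both conditions, and of the other members Acsl1 met the first. The maximum itself differed less than the summed signal. It was 3.35, 5.81 and 4.15 times the median maximum of the library in C and 4.12, 4.04 and 3.83 times in H, and the H vs C difference in rank-mapped maximum was 0.27 ± 0.11 (adjusted p = 0.210). The lists give 1 highest point per peak, so the height at the gene start in the H libraries is not known beyond being at or under that maximum. A well-studied fat-specific enhancer lies several kilobases upstream of Fabp4. Whether the upstream maxima fall in it was not tested.

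The sequences at the displaced Fabp4 maxima are shown because they hold the highest point in 8 of the 12 obese and WL libraries. Each is 300 bases around the median position on GRCm38, read 5′ to 3′ on the strand of the gene, and neither overlaps an annotated exon. The first is centred on the 7 maxima downstream (chr3:10202926-10203225) and holds 5 of them, those of HH 2 and HH 3 lying outside. The second holds the 3 upstream (chr3:10213760-10214059). Capitals mark matches to a direct repeat of AGGTCA with 1 base between, the site type bound by PPARγ with RXR, with up to 2 mismatches on either strand.
Fabp4 downstream maximum: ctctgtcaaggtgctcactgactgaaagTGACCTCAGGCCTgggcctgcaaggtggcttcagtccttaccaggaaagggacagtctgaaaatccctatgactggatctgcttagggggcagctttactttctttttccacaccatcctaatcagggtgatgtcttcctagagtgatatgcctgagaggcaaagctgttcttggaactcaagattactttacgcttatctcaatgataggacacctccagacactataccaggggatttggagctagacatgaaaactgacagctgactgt
Fabp4 upstream maximum: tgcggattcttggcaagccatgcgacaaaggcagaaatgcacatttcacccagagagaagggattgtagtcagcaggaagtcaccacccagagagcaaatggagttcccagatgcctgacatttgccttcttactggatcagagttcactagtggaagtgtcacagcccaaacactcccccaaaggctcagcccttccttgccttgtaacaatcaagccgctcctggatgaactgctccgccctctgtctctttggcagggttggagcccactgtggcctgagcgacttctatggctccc
The downstream window holds 1 such match, on the reverse strand with 2 mismatches, at bases 29 to 41. Of 12382 windows of the same length at the maxima of regions found in all libraries, 5.32% hold one. A match is a run of letters and not a measured site. No match was found in the upstream window, and neither window holds TTGC followed by GCAA with up to 1 mismatch (11.6% of windows), the palindrome that C/EBP factors prefer, or the AP-1 letters TGANTCA (8.16%).

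**Figure D4:**
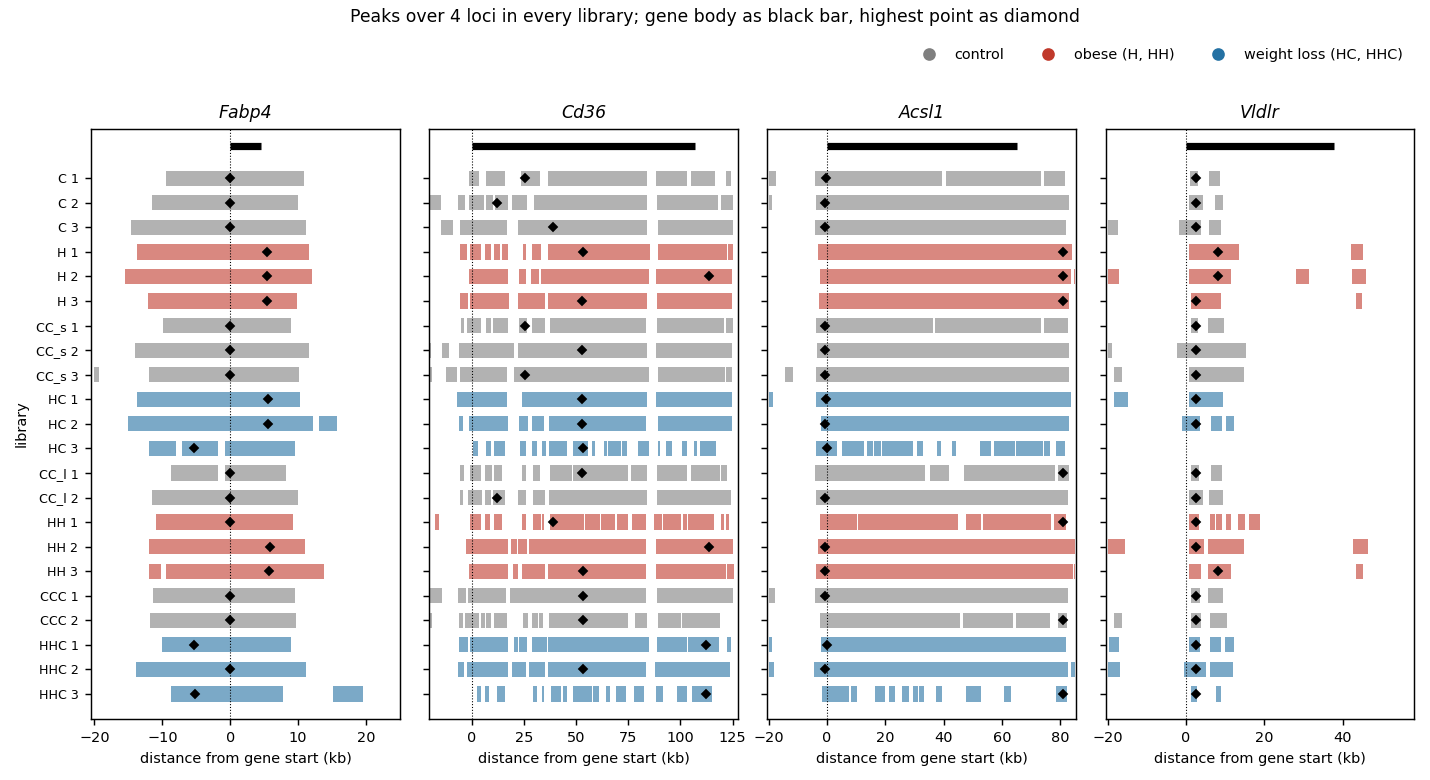
Peaks (bars) over the Fabp4, Cd36, Acsl1 and Vldlr loci in each library against the distance from the gene start in kb, coloured by kind of group, with the gene as a black bar on top and the highest point of coverage as a diamond. At Fabp4 the diamonds of the control libraries stand at the gene start, and those of the H libraries 5.36 to 5.47 kb past it.

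Cd36 is the scavenger receptor that facilitates the uptake of long-chain fatty acids. The gene spans 107 kb on chromosome 5 (chr5:17781690-17888801, minus strand). Its locus signal was 13.11, 13.21 and 13.45 in C and 13.75, 13.84 and 14.07 in H, and it was 13.46 and 13.41 in CC_l and 14.02, 13.92 and 14.23 in HH. The obese and control libraries were separate at both durations. The difference was 0.63 ± 0.14 in H vs C (adjusted p = 0.0372), 0.62 ± 0.14 in HH vs CC_l (adjusted p = 0.229) and 0.62 ± 0.09 over both (adjusted p = 0.00210). The H vs C call was lost without any of C 1, C 2, H 1, H 2 or H 3, with differences of 0.54 to 0.70. It was lost as well in maximum signal (0.12, adjusted p = 0.513), in covered length (0.14, adjusted p = 0.433) and in share of the library signal (0.35, adjusted p = 0.320), and with no filter, no trend or no flank. The call over both durations was lost in maximum signal (0.10, adjusted p = 0.573), in covered length (0.20, adjusted p = 0.0685) and in share of the library signal (0.35, adjusted p = 0.139).

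After WL the groups overlapped at Cd36. The signal was 13.56, 12.98 and 13.37 in CC_s and 13.56, 13.88 and 13.71 in HC, a difference of 0.41 ± 0.20 with a 95% interval of -0.05 to 0.88. It was 13.58 and 13.50 in CCC and 13.94, 13.45 and 13.34 in HHC, a difference of 0.04 ± 0.22 with an interval of -0.52 to 0.60. Both intervals include 0 and reach to 0.60 or more.

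Cd36 lies in 2 regions. The region over the last exons and the 3′ flank (chr5:17763343-17801491) had a log2 total signal of 18.21, 18.59 and 19.20 in C and 19.64, 19.62 and 19.76 in H. Its difference of 1.01 ± 0.22 (adjusted p = 0.0233) made it the only one of the 21 member regions called in H vs C. The call was lost without any of C 1, C 2, H 1 or H 2, and the difference is at the fold limit. Without C 3, the regions over Cd36, Fabp4 and Vldlr were called. The region over the gene start and the rest of the gene (chr5:17803177-17911330) differed by 0.25 ± 0.13 in H vs C and by 0.35 ± 0.10 over both durations (adjusted p = 0.0201). In HH vs CC_l the 2 regions differed by 0.46 ± 0.21 and 0.48 ± 0.13, so that the 3′ end did not stand out at 25 weeks. The difference between the regions was not tested. Over both durations 0 member regions passed both limits, where 6.16% of all regions were called and 6.13% passed the unadjusted rule. In HH vs CC_l 0% were called and 2.68% passed the unadjusted rule, with no member among them. In HHC vs CCC 0% were called and 0.706% passed the unadjusted rule, and over both durations of WL 0.942% and 2.83% did, again with no member among them.

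The highest point of the Cd36 locus lay 52.9 to 53.1 kb past the GENCODE gene start in 11 libraries of 7 groups. That is within 1 kb of the gene start given by RefSeq. In H 2 and HH 2 it lay 114 kb past the start, in the 3′ flank, and in HHC 1 and HHC 3 at 112 kb. No control library had its highest point there, and neither did the other obese and WL libraries. The maximum of HHC 3 was only 36. This contrast was described after the positions had been seen, and the share of all loci with such a pattern was not counted. The 300 bases around the H 2 and HH 2 maxima (chr5:17774978-17775277, in no annotated gene) are shown with the 250 bases before the RefSeq start (chr5:17835897-17836146), which lie beside the 11 maxima and hold 0 of them, on the strand of the gene and with the PPARγ and RXR type of match in capitals.
Cd36 RefSeq start: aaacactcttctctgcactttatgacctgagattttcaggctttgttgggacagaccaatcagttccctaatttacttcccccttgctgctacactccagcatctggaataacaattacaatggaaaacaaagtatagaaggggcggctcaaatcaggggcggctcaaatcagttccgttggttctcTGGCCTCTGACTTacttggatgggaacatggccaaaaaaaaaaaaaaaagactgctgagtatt
Cd36 3′ flank maximum: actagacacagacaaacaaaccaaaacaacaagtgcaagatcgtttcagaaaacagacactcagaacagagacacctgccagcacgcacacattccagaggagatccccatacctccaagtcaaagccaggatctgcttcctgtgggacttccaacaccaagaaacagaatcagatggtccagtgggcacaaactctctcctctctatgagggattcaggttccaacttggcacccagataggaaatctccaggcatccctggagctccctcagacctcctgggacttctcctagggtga
The promoter window, and so not the place of the maxima, holds 1 match with 2 mismatches on the reverse strand, as 3.24% of all RefSeq promoter windows of this length hold one, and the flank window holds none. RefSeq promoter sequences were matched for 5 of the 9 members, Cd36, Slc27a1, Vldlr, Acsl1 and Cav1, and not for Lpl, Fabp4, Fabp5 and Angptl4. Of their other windows, 1 of Cav1 holds the same type of match, with 2 mismatches, and 1 of Vldlr holds the C/EBP type with 1 mismatch, as 5.08% of all promoter windows do.

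Vldlr lies on chromosome 19 (chr19:27216484-27254231, plus strand) and was the least covered member. Its locus signal was 9.58, 9.61 and 10.55 in C and 10.86, 11.32 and 10.50 in H, with C 3 and H 3 overlapping. It was 10.09 and 10.03 in CC_l and 11.22, 11.41 and 11.04 in HH, which were separate. The difference was 0.98 ± 0.34 in H vs C (adjusted p = 0.106), 1.16 ± 0.23 in HH vs CC_l (adjusted p = 0.190) and 1.06 ± 0.21 over both (adjusted p = 0.00785). In covered length over both durations the difference was 1.25 ± 0.25 (adjusted p = 0.0101), and in maximum signal 0.19 ± 0.15 (adjusted p = 0.557). The call was lost in 1 fit of all 22 libraries (1.07, adjusted p = 0.193). The region over the Vldlr start differed by 0.83 ± 0.24 in H vs C (adjusted p = 0.0512) and by 0.83 ± 0.16 over both durations (adjusted p = 0.00329), under the fold limit.

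The WL groups showed no such separation at Vldlr. CC_s had 10.13, 10.89 and 10.82, and HC 10.79, 10.66 and 7.23, the last of which is the floor because HC 3 has no peak in the locus. The HC vs CC_s difference of -1.05 ± 0.94 turned to 0.12 ± 0.28 without HC 3. CCC had 10.29 and 10.70 and HHC 10.89, 10.83 and 9.74, a difference of -0.00 ± 0.48.

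The highest point of the Vldlr locus lay 2.50 to 2.62 kb past the gene start in 18 libraries, within an intron. The sequence at this point (chr19:27218901-27219200, plus strand) is shown as the usual place of the maximum. It holds no match to the motifs searched.
Vldlr first maximum: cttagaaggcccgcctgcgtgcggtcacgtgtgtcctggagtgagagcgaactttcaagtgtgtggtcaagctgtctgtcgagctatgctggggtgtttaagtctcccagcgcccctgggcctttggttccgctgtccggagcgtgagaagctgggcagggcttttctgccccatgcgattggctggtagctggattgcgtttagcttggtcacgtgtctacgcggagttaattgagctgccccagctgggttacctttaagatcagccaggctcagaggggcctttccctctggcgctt

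Acsl1 encodes the main long-chain acyl-CoA synthetase of the adipocyte and spans 65.0 kb on chromosome 8 (chr8:46471037-46536051, plus strand). Its locus signal was 14.05, 13.90 and 14.14 in C and 14.13, 14.40 and 14.34 in H, and it was 13.96 and 13.76 in CC_l and 14.46, 15.04 and 15.09 in HH. The first pair overlapped and the second did not. The difference was 0.26 ± 0.11 in H vs C (adjusted p = 0.165) and 1.01 ± 0.22 in HH vs CC_l (adjusted p = 0.200), and 0.59 ± 0.16 over both (adjusted p = 0.0294). The call over both durations was lost without any of C 2, H 2, CC_l 1 or CC_l 2, with differences of 0.47 to 0.61 and adjusted p values of 0.0575 to 0.0859. In maximum signal the difference over both durations was -0.20 ± 0.08 (adjusted p = 0.168), and the HH vs CC_l difference was -0.09 (adjusted p = 0.958). The call over both durations was lost as well in covered length (0.17), in signal inside the locus (0.46), in share of the library signal (0.26), with a flank of 50 kb (0.37) and with no filter. The obesity effect was 0.75 ± 0.24 larger at 25 weeks, with an unadjusted p of 0.0117 and an adjusted p of 0.947, and this difference was -0.02 in covered length, below 0.

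After WL the signal at Acsl1 was 13.91, 13.10 and 13.61 in CC_s and 14.16, 14.71 and 14.26 in HC, without overlap, and the difference was 0.83 ± 0.25 (adjusted p = 0.519). It was 13.71 and 13.69 in CCC and 14.39, 14.14 and 13.28 in HHC, a difference of 0.24 ± 0.34 that came to 0.57 ± 0.15 without HHC 3 (adjusted p = 0.705). The region over the gene (chr8:46466416-46558810) also holds the start of Cenpu, a centromere protein gene. It differed by 0.16 ± 0.17 in H vs C, 0.81 ± 0.24 in HH vs CC_l, 0.67 ± 0.21 in HC vs CC_s and 0.42 ± 0.39 in HHC vs CCC, and was not called. The upstream region, whose edge reaches into the locus (chr8:46399180-46453339), went the other way in H vs C, with a log2 total signal of 19.36, 19.21 and 19.13 in C and 18.26, 18.31 and 18.78 in H. Its difference was -0.78 ± 0.15 (adjusted p = 0.0167), under the fold limit.

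The highest point of the Acsl1 locus lay before the gene start, at -0.84 to -0.15 kb, in 15 libraries. In H 1, H 2 and H 3, and in CC_l 1, HH 1, CCC 2 and HHC 3, it lay 80.9 kb past the start, at the start of Cenpu. The 250 bases before the Acsl1 start (chr8:46470787-46471036, plus strand, RefSeq on GRCm38.p6) are shown as the promoter nearest to these 15 maxima, of which they hold 3 (HC 1, HC 3 and HHC 1). They are 72.0% G and C and hold none of the motifs.
Acsl1 RefSeq start: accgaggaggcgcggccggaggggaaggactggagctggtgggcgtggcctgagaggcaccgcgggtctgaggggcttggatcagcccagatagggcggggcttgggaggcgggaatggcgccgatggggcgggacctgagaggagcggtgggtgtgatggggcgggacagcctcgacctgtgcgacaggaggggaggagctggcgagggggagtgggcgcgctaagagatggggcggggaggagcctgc

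Fabp5, the epidermal type fatty acid binding protein, lies on chromosome 3 as Fabp4 does (chr3:10012548-10016607, plus strand). Its locus signal was 11.65, 11.51 and 12.15 in C and 12.32, 12.39 and 12.16 in H, and it was 11.75 and 11.32 in CC_l and 12.82, 11.94 and 12.03 in HH. The obese libraries lay above their controls at both durations, with H 3 only just above C 3. The difference was 0.52 ± 0.19 in H vs C (adjusted p = 0.128), 0.73 ± 0.33 in HH vs CC_l (adjusted p = 0.472) and 0.61 ± 0.18 over both (adjusted p = 0.0446). That call was lost without any 1 of 8 libraries, with differences of 0.52 to 0.66. In maximum signal the difference was -0.09 ± 0.12 (adjusted p = 0.754), and in H vs C it was -0.0032. The call over both durations was lost as well in covered length (0.63), in share of the library signal (0.45), with another flank (0.88 with none and 0.41 with 50 kb), with no filter and with no trend. The locus signal ranged from 11.30 to 11.75 in CC_s and from 11.34 to 11.96 in HC, and from 11.76 to 11.80 in CCC and from 11.76 to 11.96 in HHC. After WL the differences were thus 0.14 ± 0.26 and 0.06 ± 0.22, with overlap in both pairs. The region over Fabp5 (chr3:10008156-10024689) differed by 0.59 ± 0.23 in H vs C (adjusted p = 0.118) and by 0.70 ± 0.20 over both durations of obesity (adjusted p = 0.0256), under the fold limit. The highest point lay at the gene start in 21 of 22 libraries, the exception being CC_l 1.

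Lpl, the enzyme at the head of the uptake pathway, differed little. Its locus signal (chr8:68880491-68907448, plus strand) ranged from 14.07 to 14.73 in C and from 14.35 to 14.68 in H, and from 14.46 to 14.49 in CC_l and from 14.05 to 14.48 in HH. It ranged from 13.61 to 14.46 in CC_s, from 13.91 to 14.19 in HC, from 14.12 to 14.26 in CCC and from 13.59 to 14.35 in HHC, so that all 4 pairs overlapped. The difference was 0.22 ± 0.20 in H vs C and -0.24 ± 0.15 in HH vs CC_l, of opposite sign. Their difference, -0.45 ± 0.27, had an adjusted p of 0.947. The obese difference fitted over both durations was 0.02 ± 0.15 with an interval of -0.30 to 0.34, and the WL difference -0.09 ± 0.17 with an interval of -0.47 to 0.30. An obese difference of the size of the Fabp4 value lies outside the first interval. The region over Lpl, which reaches to Ints10, differed by -0.06 ± 0.13 in H vs C, -0.42 ± 0.14 in HH vs CC_l (adjusted p = 0.269), -0.32 ± 0.18 in HC vs CC_s and -0.35 ± 0.30 in HHC vs CCC. The highest point lay within 1 kb of the Lpl start in 7 of the 10 control libraries and 9 of the 12 obese and WL libraries.

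Angptl4, the inhibitor of Lpl (chr17:33773750-33781830, minus strand), had locus signals of 13.86, 13.98 and 13.69 in C and 14.22, 14.15 and 14.06 in H. The groups were separate, and the difference of 0.30 ± 0.11 had an adjusted p of 0.120. In HC vs CC_s, 14.27, 14.78 and 14.23 stood above 13.95, 13.79 and 13.94, a difference of 0.53 ± 0.18 (adjusted p = 0.530). In the 25-week groups the signal was 14.11 and 14.47 in CC_l and 14.33 to 14.36 in HH, and 13.93 and 14.30 in CCC and 13.69 to 14.46 in HHC, with differences of 0.06 ± 0.14 and 0.00 ± 0.27. The region over Angptl4 and Rab11b (chr17:33741875-33807082) differed by 0.17 ± 0.12 in H vs C and 0.34 ± 0.19 in HC vs CC_s. The highest point of this locus lay 21.3 to 21.5 kb past the gene start in 20 of 22 libraries, at the gene Rab11b. In maximum signal the H vs C difference was -0.25 and the HC vs CC_s difference -0.15, below 0. In share of the library signal the H vs C difference was -0.02.

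Slc27a1, the fatty acid transport protein (chr8:71568882-71587302, plus strand), had an obese difference of 0.14 ± 0.11 over both durations (adjusted p = 0.408). Its WL difference was 0.43 ± 0.15 (unadjusted p = 0.0135, adjusted p = 0.249). The locus signal ranged from 13.29 to 13.77 in CC_s and from 13.75 to 14.26 in HC, and was 13.49 and 13.63 in CCC and 14.24, 14.01 and 13.60 in HHC. Both pairs overlapped. In the obese pairs it ranged from 13.32 to 13.74 in C and from 13.66 to 13.96 in H, and from 13.88 to 14.21 in CC_l and from 13.95 to 14.14 in HH, again with overlap. The region over the gene differed by 0.03 ± 0.10 over both durations of obesity and by 0.35 ± 0.12 over both of WL (adjusted p = 0.161). The highest point lay 23.1 to 23.2 kb past the gene start in H 1, CC_l 1, HH 2 and HHC 1, and from -0.42 to 1.60 kb in the other libraries. A further 6 protein-coding genes, Bst2 and Pgls among them, share its region.

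Cav1 (chr6:17306335-17341452, plus strand) had an obese difference of 0.12 ± 0.09 (interval -0.08 to 0.32) and a WL difference of -0.24 ± 0.20 (interval -0.67 to 0.19) over both durations. In HHC all 3 libraries (14.34, 13.95 and 13.62) lay under both CCC libraries (14.34 and 14.40), with HHC 1 level with CCC 1 to the second decimal. The difference was -0.40 ± 0.23 (adjusted p = 0.860). The signal ranged from 14.17 to 14.40 in C and from 14.39 to 14.64 in H, from 14.35 to 14.43 in CC_l and from 14.24 to 14.67 in HH, and from 13.73 to 14.65 in CC_s and from 13.63 to 14.38 in HC. These 3 pairs overlapped. HC 3 and HHC 3 had the lowest Cav1 signals of all libraries, 13.63 and 13.62. The region over the gene (chr6:17301137-17365364) differed by 0.09 ± 0.08 over both durations of obesity and by -0.16 ± 0.12 over both of WL. The highest point lay within 1 kb of the Cav1 start in H 3, HC 2, HC 3 and HH 1, somewhat further past it in HHC 3, before the start near Cav2 in CC_s 3, CCC 1 and CCC 2, and 8.09 to 8.27 kb past the start in the other libraries.

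**Figure D5:**
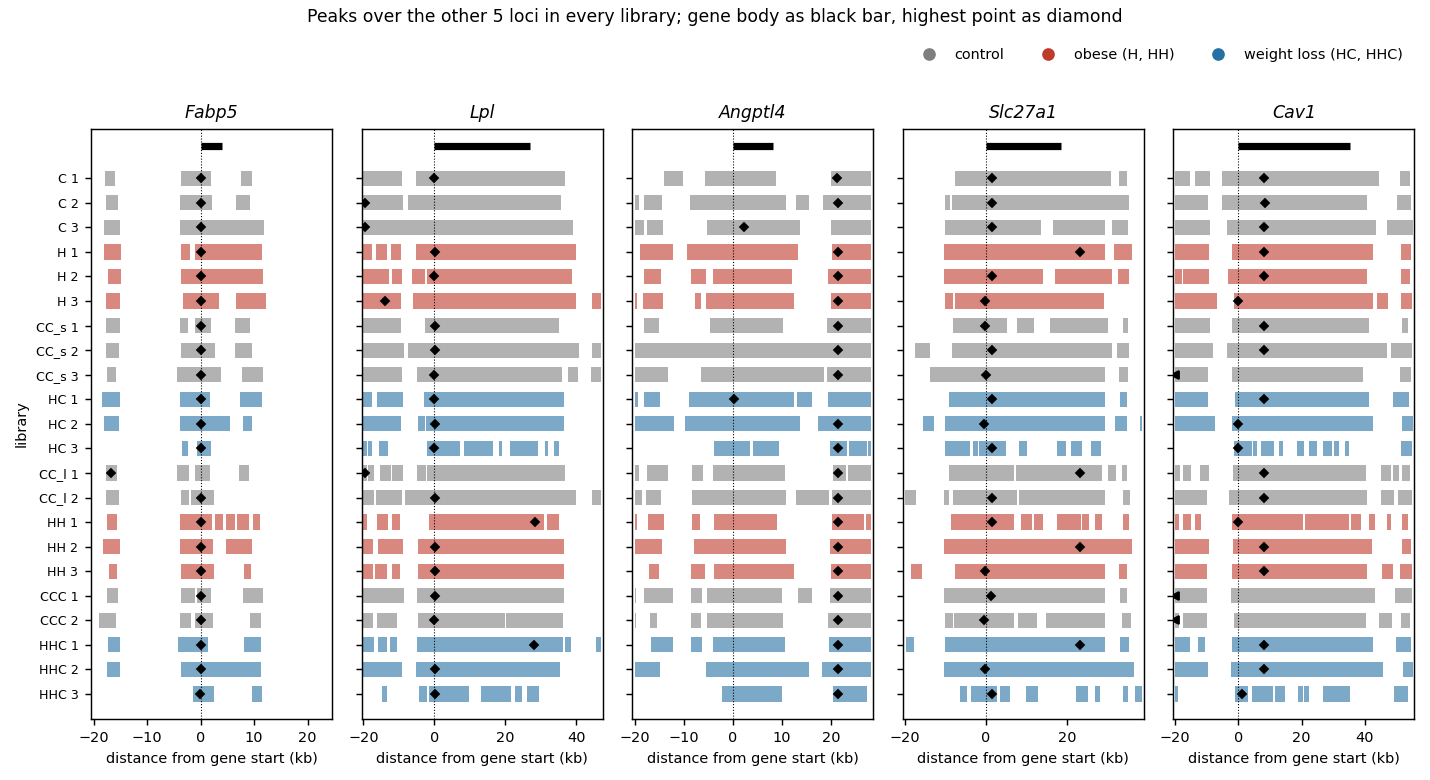
Peaks (bars) over the Fabp5, Lpl, Angptl4, Slc27a1 and Cav1 loci in each library against the distance from the gene start in kb, drawn as for the other loci, with a triangle at the edge where the highest point lies outside the locus. The Fabp5 maximum stands at the gene start in 21 libraries, and the Angptl4 maximum past the gene in 20.

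A further 30 genes of fatty acid uptake, activation and binding were counted as a list, which was put together with earlier results of these data known. In H vs C 4 of the 28 tested were called higher and 1 lower, beside the 10.6% of all loci called. Pmp2 (1.00 ± 0.13, adjusted p = 0.0141) and Fabp9 (1.01 ± 0.13, adjusted p = 0.0144), fatty acid binding proteins of myelin and of testis, lie beside Fabp4 and share its peaks, so that they are no separate observation. Cavin3, a coat protein of caveolae, was higher by 0.91 ± 0.16 (adjusted p = 0.0232), as was Cavin1 by 0.48 ± 0.11 (adjusted p = 0.0409). Angptl8, which acts with other angiopoietin-like proteins on Lpl, was lower, at -0.62 ± 0.13 (adjusted p = 0.0365). Its difference was of opposite sign in HH vs CC_l, at 0.17 ± 0.22, and -0.27 ± 0.16 over both durations of obesity. It was -0.64 ± 0.27 in HC vs CC_s and -1.02 ± 0.24 in HHC vs CCC, and Angptl8 was called in none of these. Cavin1 and Angptl8 are named after their values were seen.

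Over both durations of obesity 5 of 28 genes of the list were called higher, Pmp2, Fabp9, Cavin3, Cavin1 and Cavin2, and 1 lower, beside the 16.4% of all loci called. That was Lmf1, the maturation factor that Lpl needs in the endoplasmic reticulum, at -1.46 ± 0.29 (adjusted p = 0.00800). Cavin1, Cavin2 and Cavin3 differed by 0.46 ± 0.10, 0.55 ± 0.14 and 0.72 ± 0.15, while Cav1, their partner in caveolae, was not called. Cavin1, Cavin2 and Cavin3 are named here after their values were seen. The median of the list was 0.20. In the other comparisons 0 of 28 to 30 were called. The median of the list was 0.20 in HH vs CC_l, 0.13 in HC vs CC_s, -0.02 in HHC vs CCC and 0.12 over both durations of WL. Fabp2, the intestinal type, was at the floor in all C, CC_l and CCC libraries, and Acsl6, the form of brain, in all H, HC, HH and HHC libraries. Both had a median at the floor, with Fabp2 above it in only 9 of the 22 libraries and Acsl6 in only 5. Fabp2 was not at the floor in all CC_s libraries, and neither gene was called. They are named after their values were seen, and the share of all loci with such a pattern was not counted.

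Other marker lists moved beside these results. Among endothelial markers, Vwf was lower in H vs C, at -1.11 ± 0.24 (adjusted p = 0.0377). Cdh5 was called higher (adjusted p = 0.0131), but it was at the floor in all C libraries and passed the filter through H alone, so that its difference is a distance from the floor. Kdr and Tie1 were at the floor in all C and all H libraries. Tek and Emcn were at the floor in all C but not in all H libraries, and 9 of the 12 loci were above it in every H library against 6 in C. Cdh5 and Emcn, at the floor in all C and CC_l libraries, were among the 9 loci tested through H and HH alone, and no median over these loci is given. Over both durations of obesity Vwf was lower (-0.99 ± 0.24, adjusted p = 0.0175) and Cdh5 was called higher (adjusted p = 0.000868), again from the floor. The list mean ranged from 8.55 to 8.67 in CC_s, from 9.07 to 10.1 in HC, from 8.85 to 8.92 in CC_l and from 8.99 to 11.3 in HH. It ranged from 8.76 to 9.84 in CCC and from 8.68 to 10.4 in HHC, and this pair overlapped. Capillary endothelium also expresses Fabp4, Cd36, Cav1 and Fabp5, and macrophages use some of the members as well. The part of such cells in the results was not tested. The 12 adipocyte loci had median differences of 0.25, 0.02, 0.07 and -0.08 in H vs C, HH vs CC_l, HC vs CC_s and HHC vs CCC, with Cidec and Lipe called higher and Cfd lower in H vs C. Over both durations of obesity their median was 0.04, with Dgat2 higher (0.51 ± 0.12, adjusted p = 0.0160) and Cfd lower (-1.15 ± 0.14, adjusted p = 0.000730). In H vs C no macrophage locus of the 6 tested was called, Cd34 of the 12 progenitor loci and Lrrn4 of the 6 mesothelial loci tested were lower, and Nkg7 of the 7 lymphocyte loci tested was higher. Over both durations of obesity Lum (1.96 ± 0.48, adjusted p = 0.0198) and Mfap5 (0.93 ± 0.23, adjusted p = 0.0213) of the progenitor loci were higher, Cd14 of the 6 macrophage loci tested was lower (-0.47 ± 0.15, adjusted p = 0.0494), Lrrn4 of the mesothelial loci was lower, and of the 9 lymphocyte loci tested 1 was higher (Nkg7) and 1 lower. The mean of the macrophage list ranged from 9.21 to 11.1 over the HC libraries and from 9.40 to 9.54 in CC_s, and from 9.47 to 10.7 in HHC and from 9.43 to 9.88 in CCC. Both pairs overlapped, and no locus was called. The part of these cells was not tested. The median peak relative to the weakest one also differed between H and C, as given above, and its part was not tested.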

How the data were processed

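ATAC-seq was performed on nuclei from epiAT of 22 mice in 8 groups. Per the labels' protocols and the submitters' processing notes, reads were trimmed (Trim Galore 0.6.6), aligned to mm10 (Bowtie2 2.4.4) and handled with SAMtools 1.13 and bedtools 2.30, and peaks were called in each library with SEACR 1.3 in stringent mode at a threshold of 0.01. The peak lists deposited by the authors hold total and maximum signal (coverage) per peak, without normalization between libraries. They hold no read counts, so that depth is unknown and no counting interval is given.

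Coverage was summed over the peaks overlapping each of the 21938 loci, divided by locus length and taken to log2, and the 16763 highest loci of each library were mapped by rank to a common distribution, with the rest at the floor. Union regions (104657) were treated alike, with 30083 ranked. A mitochondrial peak in each library was set aside. Loci and regions had to exceed the floor in a number of libraries equal to the size of the smaller group. They were tested with limma 3.58.1 in R 4.3.3 (eBayes with a trend) and Benjamini-Hochberg adjustment over all of them, on the libraries compared only. The fits were tested on simulated data. Alternatives were another signal, scaling, flank, filter, weighting, block or set of libraries. Leaving out HC 3 and HHC 3 together was chosen after seeing the data.

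The members and gene lists were chosen with earlier results of these data known. All members were named, with the region of the highest signal and that of the gene start, and of other pathway genes up to 3 called in each comparison by the smallest p. Marker lists of adipocytes, macrophages, endothelium, progenitors, mesothelium and lymphocytes were described by their locus signal. Python 3.11.15, numpy 2.4.6 and pandas 2.3.3 were used. A further maximum at Vldlr and a marker locus are not reported here.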

Additional observations from a re-analysis of the deposited data

How the results depend on the processing

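Counts of called member loci depended on the signal used. In H vs C (2 called), 1 was called with no filter, with no trend or with no flank, and 0 with the maximum signal, the covered length or the share of the library signal. Leaving out 1 library gave 0 to 2. Over both durations of obesity (5 called), 3 were called with no filter or a flank of 50 kb, 2 with the covered length or the share of the library signal, and 0 with the maximum signal, and leaving out 1 library gave 3 to 5. In HC vs CC_s (0 called), 1 fit of all 22 libraries called 1 locus, Fabp4, and array weights called 4, Fabp4, Acsl1, Angptl4 and Slc27a1. Over both durations of WL (0 called) the same settings called 1 and 4, the same genes. In HH vs CC_l (0 called), array weights called 2, Acsl1 and Vldlr, and leaving out 1 library gave 0 to 1, with Acsl1 called without HH 1. The cause was not tested.

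Member regions called in H vs C (1) were 0 with no filter, 2 with the 10000 strongest peaks, and 0 to 3 with 1 library left out. In HC vs CC_s (0), 1 fit of all 22 libraries and array weights each called 1, over Fabp4. Array weights called 1 over both durations of WL, and the share of the library signal called 1 over both durations of obesity, over Vldlr.

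Some directions turned. In maximum signal the H vs C difference was -0.0032 at Fabp5 and -0.25 at Angptl4, the HC vs CC_s difference -0.145 at Angptl4, the HH vs CC_l difference -0.0909 at Acsl1, the HHC vs CCC difference -0.0541 at Fabp4, and the obese difference over both durations -0.0857 at Fabp5 and -0.20 at Acsl1. In share of the library signal the H vs C difference at Angptl4 was -0.0174, and in covered length the 25 vs 12 weeks obesity difference at Acsl1 was -0.018.

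Replicate numbers are shared between groups, and the deviations of same-numbered libraries from their group means had correlations of -0.18 to 0.28. Deviations within a group of 2 or 3 libraries sum to 0, so these values cannot show whether same-numbered libraries were handled together. With a replicate block, 0 member loci were called in H vs C and 3 over both durations of obesity. Of the alternatives to the 14 counts of calls, 218 were equal to the main count or within 1.5 times it, and 39 were not. Most of the main counts were 0, where equal means 0 again, so the 218 are no measure of stability.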
